A study of Mus musculus with 16 samples.

Results

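The 43 genes described here encode the machinery that copies DNA. They were taken by symbol from a list of origin licensing, replisome, polymerase and S-phase nucleotide genes, out of 23284 symbols counted. By role they are 5 subunits of the origin recognition complex, 3 factors of helicase loading, the 6 subunits of the helicase core, 6 factors of helicase activation, 6 of the sliding clamp and its loader, 3 of the single-strand binding complex, 9 polymerase and primase subunits, 2 enzymes of Okazaki fragment processing and 3 of nucleotide supply. All 43 passed the filter on low counts, and none had fewer than 100 reads in any tumor. RNA had been sequenced from 9 mouse lung tumors of genotype Max -/-, called Max null here, and 7 Max wild-type tumors. All 16 tumors share the RP background, strains 129/SvJ and C57BL/6, and gene deletion by Ad.CMV.Cre virus given through the trachea. The letters RP are not spelled out in the labels; by common usage they stand for conditional Rb1 and Trp53 alleles, which the Max wild-type tumors then carry too. The CMV promoter is active in many cell types, so the labels do not fix the cell of origin. They give no age, and do not say that each tumor came from its own mouse, so the tests measure how the samples vary, which may be partly technical. The Max read count covers the whole gene and cannot check the genotype, and every direction is drawn between groups as labelled.

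A cell licenses its origins before S phase, when the origin recognition complex, CDC6 and CDT1 load the MCM helicase onto DNA. In S phase CDC45 and the GINS complex switch the loaded helicase on, primase starts each strand, and the clamp loader RFC places the PCNA ring that holds polymerases to DNA. MAX is the DNA-binding partner of MYC proteins and of several repressors, and many replication genes are known targets of E2F factors, which RB1 restrains. In bulk tumor RNA, fewer cycling cells and less RNA per cycling cell cannot be told apart.

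Reads in genes were 8.66 to 15.1 M in Max null tumors and 9.15 to 13.2 M in Max wild-type tumors (M, megareads). Reads aligned to more than 1 place, which enter no gene's count, made up a share of each file's reads of 9.17 to 11.8% in Max null tumors and 12.3 to 22.2% in Max wild-type tumors, and wild-type tumors 7, 4 and 2 had the highest shares. These ranges did not overlap, so that share and the labelled genotype cannot be told apart. Calls of replication and proliferation genes are therefore also given without wild-type tumors 2, 4 and 7. The wild-type tumors that remain, at 12.3 to 14.6%, still lay above every Max null tumor. Leaving those tumors out therefore does not separate the share from the genotype. Levels are in CPM, counts per M reads in genes on TMM-scaled library sizes. Among neuroendocrine markers, Insm1 was at 221 to 549 CPM in Max null and 152 to 675 CPM in Max wild-type tumors. Summed over a list of 10 the level was 3645 to 7030.4 CPM in Max null and 3718 to 26809 CPM in Max wild-type tumors. Calca alone was at 138 to 3242 CPM in Max null and 357 to 23460 CPM in Max wild-type tumors. Its highest value, in wild-type tumor 2, made up most of the highest sum. Of the list, none of 9 tested was called. Among markers of other cells, 2 of 5 macrophage genes were called lower (summed 66.1 to 153 CPM in Max null and 107 to 229 CPM in Max wild-type tumors) and 1 of 3 neutrophil genes (11.8 to 50.5 CPM in Max null and 24.7 to 89.1 CPM in Max wild-type tumors). No marker of T and NK cells, B cells, endothelium, fibroblasts, club or ciliated cells was called. The 2 red cell markers were not tested. They summed to 0 to 1.51 CPM in Max null and 0 to 1.23 CPM in Max wild-type tumors, with Hba-a1 at 0 in all 16. Such values do not show that red cells were absent, since reads aligned to more than 1 place were not counted. In alveolar cells Abca3 was called higher (summed type 2 markers 548 to 2422 CPM in Max null and 128 to 1762 CPM in Max wild-type tumors) and Pdpn lower (summed type 1 markers 93.9 to 464 CPM in Max null and 81.0 to 231 CPM in Max wild-type tumors). The part of these cells in the results was not tested.

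In Max null tumors 8 of the 43 genes were lower than in Max wild-type tumors and 0 were higher, by edgeR's quasi-likelihood test at an adjusted p of 0.05 over all 14825 genes tested. At an unadjusted p of 0.05, 1 would be higher and 16 lower. The share of all genes at that unadjusted threshold was not taken, so these 2 counts cannot be read as a result about the members. The 8 were Orc2, Orc4, Orc5 and Orc6 of the origin recognition complex, Rfc2 and Rfc3 of the clamp loader, Rpa2 of the single-strand binding complex and Pold3 of polymerase delta. These are 18.6% of the members, where 8.64% of all genes tested were called lower and 7.4% higher. The median log2 difference was -0.32 over the members and -0.033 over all genes tested, and 35 of 43 members lay below 0. None of the genes of helicase loading, helicase core, helicase activation, Okazaki processing or nucleotide supply passed. Without wild-type tumors 2, 4 and 7, 1 member, Orc4, was called lower, where 0.871% of 15276 genes were called lower and 0.805% higher, and the members' median was -0.20. With the share of multiply aligned reads as a covariate no member was called by edgeR. At an unadjusted p of 0.05, 6 were lower and 1 higher, again without the share over all genes. With DESeq2 13 members were called lower and 1 higher, where 12.1% of genes were called lower and 10.4% higher.

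**Figure D1:**
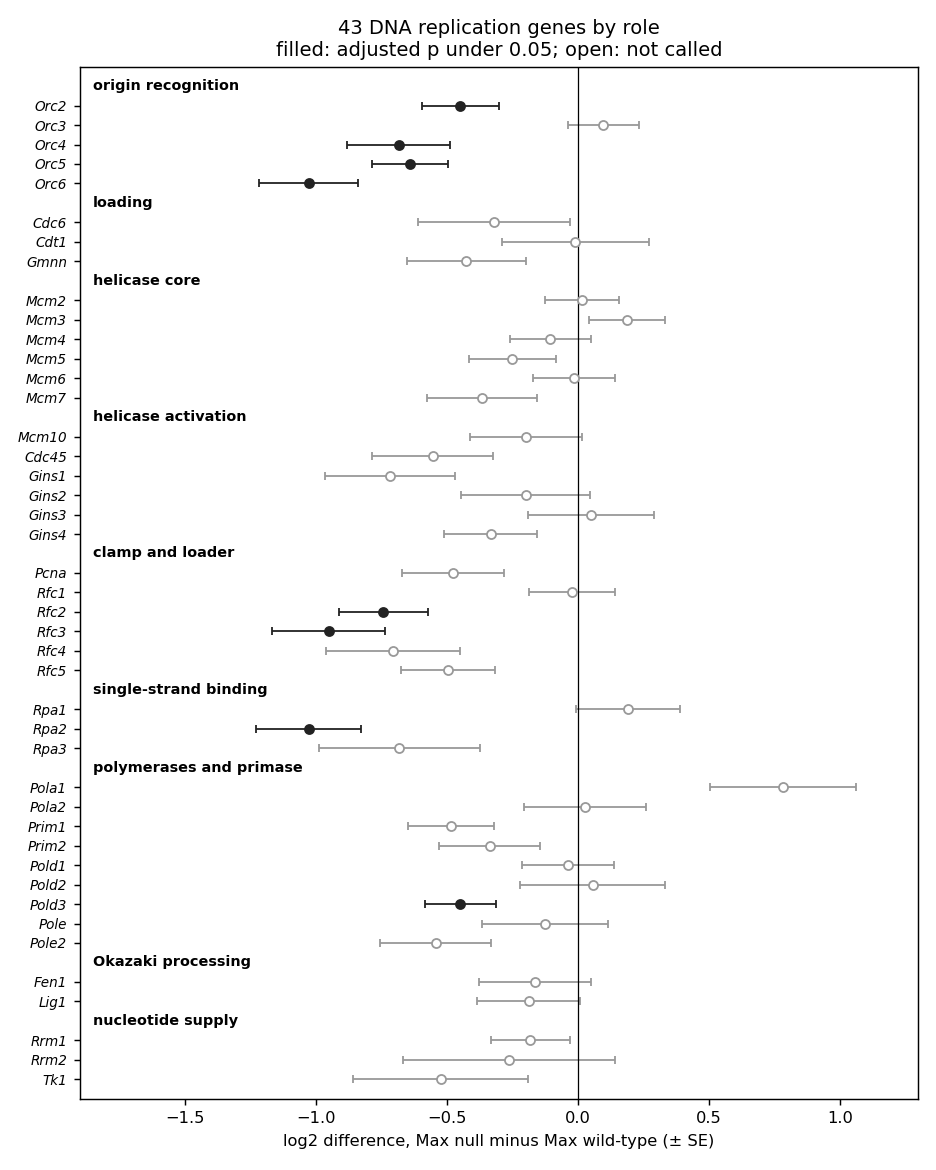
Log2 difference (Max null minus Max wild-type, x axis) with its SE for each of the 43 genes by role, from edgeR with 9 and 7 tumors. The 8 genes that passed an adjusted p of 0.05 lie between -1.03 and -0.45, while the helicase core genes lie between -0.37 and 0.19.

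Promoter sequences from RefSeq (build GRCm38.p6, 250 bases before to 50 after a gene's start) were held for 35 of the members, in 43 promoters. Both strands were searched for the E-box CACGTG, which MYC and MAX bind, and for versions of the E2F site. These were TTGGCGC, the version TTGCCGC, the version TTCGCGC and the version TTCCCGC, and a TTGGCGC on one strand can overlap a match on the other. An E2F version was present in 23 of 35 members (65.7%), where 10.9% of 27025 genes in the table had one. The E-box was present in 6 members (17.1%), where 8.09% of all genes had one. The 6 were Orc4, Rfc1, Rpa1, Pola2, Fen1 and Lig1. A match describes letters and is not a binding site. Shown are 3 genes that fell and have a single promoter in the table (Orc6, Rfc3 and Rpa2), a partner subunit with an E-box (Rpa1), the member promoter with the most E2F matches (Mcm6), and the polymerase and primase genes compared as a ratio further on (Pola1 and Prim1). Capitals mark E2F or E-box letters, and overlapping matches run together.
Orc6, chr8:85299382-85299681, plus strand: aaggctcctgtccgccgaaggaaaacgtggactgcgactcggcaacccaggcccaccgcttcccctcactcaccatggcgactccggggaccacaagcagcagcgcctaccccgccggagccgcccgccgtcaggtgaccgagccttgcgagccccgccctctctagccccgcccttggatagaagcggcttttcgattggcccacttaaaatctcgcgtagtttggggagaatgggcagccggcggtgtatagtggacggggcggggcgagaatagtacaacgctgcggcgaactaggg
Rfc3, chr5:151651159-151651458, minus strand: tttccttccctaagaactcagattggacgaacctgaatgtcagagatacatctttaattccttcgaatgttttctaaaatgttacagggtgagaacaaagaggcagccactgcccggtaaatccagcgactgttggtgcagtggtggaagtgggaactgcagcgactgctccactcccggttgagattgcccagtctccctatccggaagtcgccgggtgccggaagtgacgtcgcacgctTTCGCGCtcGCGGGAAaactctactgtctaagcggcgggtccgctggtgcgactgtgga
Rpa2, chr4:132768110-132768409, plus strand: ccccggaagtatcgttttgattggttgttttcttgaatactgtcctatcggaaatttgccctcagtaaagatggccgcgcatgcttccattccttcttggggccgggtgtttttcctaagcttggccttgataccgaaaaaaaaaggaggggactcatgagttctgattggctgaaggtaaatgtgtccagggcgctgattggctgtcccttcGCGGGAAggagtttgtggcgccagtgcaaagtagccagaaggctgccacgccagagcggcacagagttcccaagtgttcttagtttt
Rpa1, chr11:75348334-75348633, minus strand: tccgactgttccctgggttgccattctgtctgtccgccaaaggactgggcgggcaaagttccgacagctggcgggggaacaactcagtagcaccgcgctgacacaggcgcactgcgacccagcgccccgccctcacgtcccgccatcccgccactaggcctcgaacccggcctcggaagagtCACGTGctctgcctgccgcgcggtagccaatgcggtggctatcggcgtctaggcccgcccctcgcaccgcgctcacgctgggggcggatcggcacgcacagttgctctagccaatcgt
Mcm6, chr1:128359656-128359955, minus strand: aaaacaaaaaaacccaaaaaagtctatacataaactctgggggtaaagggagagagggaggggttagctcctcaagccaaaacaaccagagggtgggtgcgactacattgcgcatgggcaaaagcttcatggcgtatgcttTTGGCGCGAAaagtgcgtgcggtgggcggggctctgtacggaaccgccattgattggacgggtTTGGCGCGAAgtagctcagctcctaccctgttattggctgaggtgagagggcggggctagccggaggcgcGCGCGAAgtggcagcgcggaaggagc
Pola1, chrX:93632106-93632405, minus strand: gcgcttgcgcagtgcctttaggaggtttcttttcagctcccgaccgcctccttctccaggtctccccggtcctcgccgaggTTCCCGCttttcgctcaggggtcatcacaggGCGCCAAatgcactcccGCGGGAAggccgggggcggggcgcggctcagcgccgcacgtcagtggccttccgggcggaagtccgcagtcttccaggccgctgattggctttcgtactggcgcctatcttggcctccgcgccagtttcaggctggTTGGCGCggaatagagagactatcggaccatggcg
Prim1, chr10:128014965-128015264, plus strand: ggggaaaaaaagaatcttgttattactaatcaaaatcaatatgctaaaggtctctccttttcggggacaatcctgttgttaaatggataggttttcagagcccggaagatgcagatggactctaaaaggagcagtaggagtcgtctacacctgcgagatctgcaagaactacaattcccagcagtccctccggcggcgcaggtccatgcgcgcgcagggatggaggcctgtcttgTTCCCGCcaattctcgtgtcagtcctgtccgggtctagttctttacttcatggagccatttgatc
The Orc6 promoter held neither motif in this window, while that of Mcm6 held 5 E2F matches.

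Of the 5 genes of origin recognition 4 fell. This complex marks where replication can start. Orc6, whose product is the least tightly bound subunit, measured 48.8, 54.6 and 91.6 CPM in Max null tumors, against 85.9, 114 and 191 CPM in Max wild-type tumors (lowest, median and highest). Of the 9 Max null tumors 8 lay below every wild-type tumor, and null tumor 9 was the exception. The log2 difference was -1.03 ± 0.19 (SE, edgeR adjusted p = 0.00401). It was -0.75 without wild-type tumors 2, 4 and 7 (adjusted p = 0.0552), and -0.66 after a correction for transcript length and GC content (adjusted p = 0.0402).

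Orc5, an ATP-binding subunit, measured 22.4, 29.9 and 43.7 CPM in Max null tumors, against 42.2, 46.3 and 58.4 CPM in Max wild-type tumors. Here too 8 of 9 Max null tumors lay below every wild-type tumor, with null tumor 4 the exception. Its log2 difference was -0.64 ± 0.15 (edgeR adjusted p = 0.0105), and -0.55 without wild-type tumors 2, 4 and 7 (adjusted p = 0.0877). Orc4, another ATP-binding subunit, measured 38.7, 45.1 and 58.3 CPM in Max null tumors, against 44.4, 77.0 and 122 CPM in Max wild-type tumors. All 9 Max null tumors lay below the wild-type median, and wild-type tumors 1, 2 and 7 lay within the Max null range. Its log2 difference was -0.68 ± 0.20 (adjusted p = 0.0283), and -0.89 without wild-type tumors 2, 4 and 7 (adjusted p = 0.0419). This call was lost by a small margin without null tumor 2 (-0.65, adjusted p = 0.0505), wild-type tumor 4 (-0.68, 0.0505) or wild-type tumor 6 (-0.53, 0.0602).

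Orc2, which encodes a core subunit, measured 47.0, 63.6 and 98.2 CPM in Max null tumors, against 70.3, 93.8 and 102 CPM in Max wild-type tumors. Null tumor 5 lay above the wild-type median and wild-type tumors 1, 3, 5 and 7 lay within the Max null range. Its log2 difference was -0.45 ± 0.15 (edgeR adjusted p = 0.0473). It passed in 2 of the 16 fits without 1 tumor, those without null tumor 5 or wild-type tumor 3, and was -0.37 without wild-type tumors 2, 4 and 7 (adjusted p = 0.254). In the GENCODE M21 annotation 24.0% of its exon bases overlap Nif3l1 on the opposite strand, so its level is uncertain. Smaller overlaps were found for Orc4 (9.48% with Acvr2a), Orc6 (7.14% with Vps35) and Orc5 (4.28% with Gm15421). Orc3, a further core subunit, measured 68.8, 91.4 and 128 CPM in Max null tumors, against 74.1, 85.5 and 108 CPM in Max wild-type tumors. All 7 wild-type tumors lay within the Max null range, and its log2 difference was 0.098 ± 0.14 (adjusted p = 0.650).

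**Figure D2:**
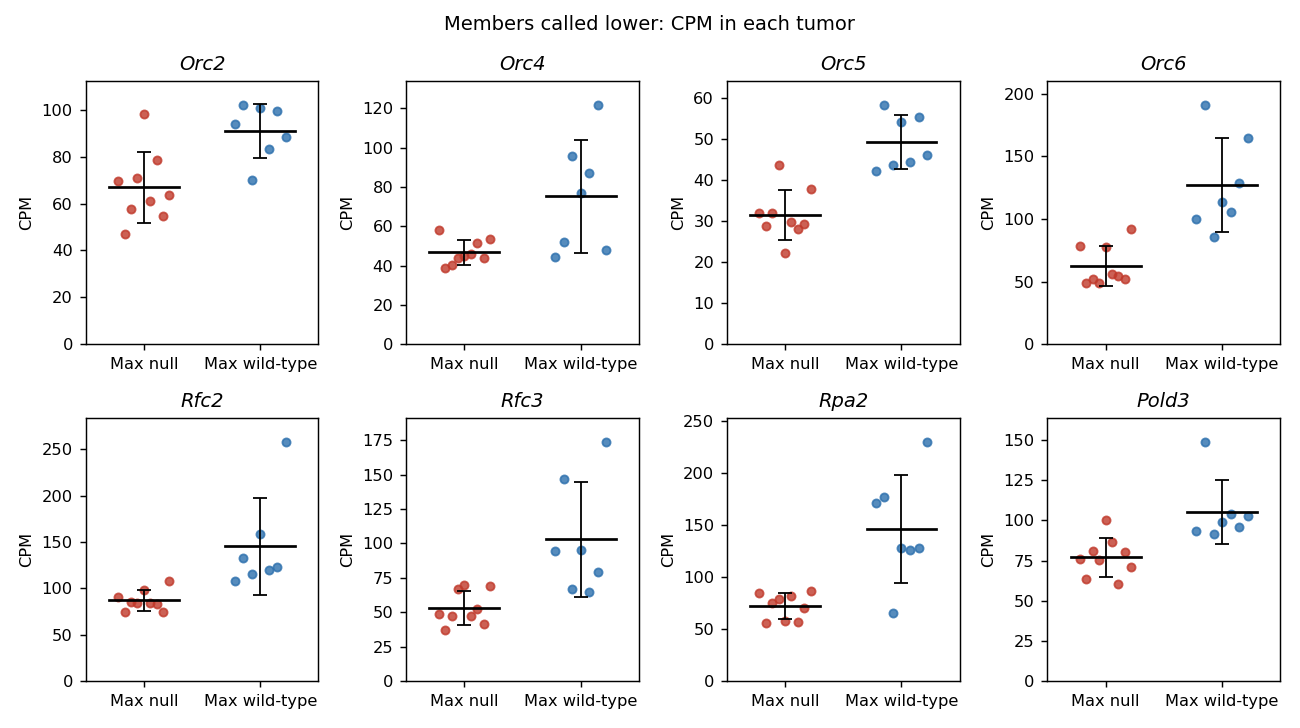
CPM (y axis, from 0) of the 8 genes called lower, 1 point per tumor, Max null (n = 9) left of Max wild-type (n = 7), with mean and SD. For Rfc2 no Max null tumor reaches the lowest wild-type tumor, while for Orc4 3 wild-type tumors lie within the Max null range.

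The 3 genes of helicase loading did not pass. CDC6 and CDT1 bring the helicase to the origin, and geminin, the product of Gmnn, blocks CDT1 once S phase has begun. Cdt1 measured 56.9, 80.0 and 214 CPM in Max null tumors, against 50.3, 94.9 and 168 CPM in Max wild-type tumors (log2 difference -0.0087 ± 0.28, edgeR adjusted p = 0.986). Gmnn measured 29.2, 56.3 and 83.5 CPM in Max null tumors, against 49.5, 67.6 and 120.4 CPM in Max wild-type tumors (-0.42 ± 0.23, adjusted p = 0.203). The groups overlapped widely in both genes, and null tumor 5 held the highest Cdt1 of all 16 tumors. Cdc6 measured 21.6, 37.7 and 118 CPM in Max null tumors, against 39.5, 57.8 and 64.3 CPM in Max wild-type tumors, and its highest value was again null tumor 5. Without null tumor 5, Cdc6, Gins1, Pcna, Rfc5, Prim1, Pole2 and Tk1 were also called, so that 15 members were lower, where 10.2% of genes were called lower and 8.6% higher.

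None of the 6 helicase core genes passed. The ring that they form unwinds DNA ahead of the polymerases. Mcm2 measured 219, 344 and 402 CPM in Max null tumors, against 259, 338 and 397 CPM in Max wild-type tumors (log2 difference 0.017 ± 0.14, edgeR adjusted p = 0.947; -0.015 with upper-quartile scaling). Mcm6 measured 253, 321 and 391 CPM in Max null tumors, against 234, 311 and 448 CPM in Max wild-type tumors (-0.014 ± 0.16, adjusted p = 0.960). In both genes about as many Max null tumors lay above the wild-type median as below it, 5 of 9 for Mcm2 and 5 of 9 for Mcm6. The differences farthest from 0 were those of Mcm7 (-0.37 ± 0.21) and Mcm5 (-0.25 ± 0.17), and the highest was that of Mcm3 (0.19 ± 0.15). For Mcm7, 10.8% of the exon bases overlap Ap4m1 on the opposite strand. Per kilobase of exon, mean levels over the 6 ranged from 42.9 to 99.2 CPM in Max null tumors and from 46.4 to 98.1 CPM in Max wild-type tumors, with Mcm2 the highest in both groups.

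Of the 6 genes of helicase activation 5 lay below 0 and none passed. Gins4, a subunit of the GINS complex, measured 42.1, 50.2 and 64.9 CPM in Max null tumors, against 49.1, 57.4 and 118 CPM in Max wild-type tumors (log2 difference -0.33 ± 0.18, edgeR adjusted p = 0.202). Cdc45, the partner of GINS on the helicase, measured 20.7, 42.6 and 68.5 CPM in Max null tumors, against 42.2, 70.9 and 86.4 CPM in Max wild-type tumors (-0.55 ± 0.23, adjusted p = 0.103). All 9 Max null tumors lay below the wild-type median for Cdc45, as they did for Gins1. Gins1 measured 14.0, 19.6 and 32.8 CPM in Max null tumors, against 14.0, 33.1 and 52.7 CPM in Max wild-type tumors (-0.72 ± 0.25, adjusted p = 0.0555). The other 3 lay between -0.20 and 0.051, and Gins2 is uncertain because 70.7% of its exon bases overlap Gse1 on the opposite strand.

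All 6 genes of the clamp and its loader lay below 0 and 2 of them, Rfc2 and Rfc3, passed. RFC opens the PCNA ring and closes it around primed DNA. Rfc2, a small subunit, measured 73.9, 84.5 and 108 CPM in Max null tumors, against 108, 123 and 258 CPM in Max wild-type tumors. It was the 1 member whose groups did not overlap, where 0.648% of all genes tested were non-overlapping and lower and 0.917% non-overlapping and higher, though its nearest tumors lay within 1 CPM. Its log2 difference was -0.74 ± 0.17 (edgeR adjusted p = 0.0107), and -0.43 without wild-type tumors 2, 4 and 7 (adjusted p = 0.0745). In the annotation 19.1% of its exon bases overlap Lat2 on the opposite strand. Rfc3, another small subunit, measured 36.9, 48.6 and 69.7 CPM in Max null tumors, against 64.7, 94.3 and 174 CPM in Max wild-type tumors. Wild-type tumors 3 and 5 lay within the Max null range and the other 5 above it. Its log2 difference was -0.95 ± 0.22 (adjusted p = 0.0105), and -0.52 without wild-type tumors 2, 4 and 7 (adjusted p = 0.147).

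Rfc4 and Rfc5, the other small subunits, had log2 differences of -0.70 ± 0.26 and -0.49 ± 0.18 and did not pass (edgeR adjusted p = 0.0675 and 0.0657). On the opposite strand, 13.4% of the exon bases of Rfc4 overlap Eif4a2 and 15.4% of those of Rfc5 overlap Wsb2. Rfc1, the large subunit, measured 90.0, 120.2 and 184 CPM in Max null tumors, against 104, 128 and 161 CPM in Max wild-type tumors (-0.021 ± 0.16, adjusted p = 0.943). All 7 wild-type tumors lay within the Max null range of Rfc1. Pcna, the clamp itself, had the highest mean level of the 43 genes per kilobase of exon, at 413 CPM in Max null and 575 CPM in Max wild-type tumors. It measured 423, 633 and 958 CPM in Max null tumors, against 600.2, 856 and 1210.2 CPM in Max wild-type tumors (-0.48 ± 0.19, adjusted p = 0.0982), and 8 of 9 Max null tumors lay below the wild-type median.

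The RPA complex coats unwound single-stranded DNA. Rpa2, its middle subunit, measured 55.3, 75.0 and 86.2 CPM in Max null tumors, against 65.6, 128 and 230.2 CPM in Max wild-type tumors. Wild-type tumor 3 lay within the Max null range and the other 6 wild-type tumors lay above it. The log2 difference was -1.03 ± 0.20 (edgeR adjusted p = 0.00531), and -0.77 without wild-type tumors 2, 4 and 7 (adjusted p = 0.0682). Rpa1, the large subunit, measured 199, 293 and 403 CPM in Max null tumors, against 139, 248 and 338 CPM in Max wild-type tumors (0.19 ± 0.20, adjusted p = 0.530; -0.078 after the length and GC correction). Rpa3, the smallest, was at -0.68 ± 0.31 (adjusted p = 0.130), and at 0.15 after that correction.

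Among the 9 polymerase and primase genes 1 fell, Pold3, an accessory subunit of polymerase delta. It measured 60.2, 76.1 and 100.4 CPM in Max null tumors, against 91.6, 99.3 and 149 CPM in Max wild-type tumors. Of the 9 Max null tumors 8 lay below every wild-type tumor, with null tumor 5 the exception. The log2 difference was -0.45 ± 0.14 (edgeR adjusted p = 0.0345). It passed in 7 of the 16 fits without 1 tumor, those without null tumor 3, 5 or 6 or wild-type tumor 1, 3, 6 or 7. The smallest difference was -0.34 without wild-type tumor 2 (adjusted p = 0.0771). Without wild-type tumors 2, 4 and 7 it was -0.32 (adjusted p = 0.208). Pold1 and Pole, the catalytic subunits of polymerases delta and epsilon, were at -0.037 ± 0.18 and -0.12 ± 0.24 and did not pass.

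Pola1, the catalytic subunit of the polymerase that extends RNA primers, had the highest difference of the 43. It measured 95.1, 149 and 247 CPM in Max null tumors, against 52.5, 77.4 and 174 CPM in Max wild-type tumors. All 9 Max null tumors lay above the wild-type median, and wild-type tumors 5 and 6 lay within the Max null range. The log2 difference was 0.78 ± 0.28 and did not pass (edgeR adjusted p = 0.0618). It was called higher with DESeq2, and in edgeR without wild-type tumor 5 (0.93, adjusted p = 0.0382) or 6 (1.01, 0.0216). Without wild-type tumors 2, 4 and 7 the difference was 0.47 (edgeR adjusted p = 0.424). Prim1, the primase in the same complex, measured 74.8, 91.9 and 157 CPM in Max null tumors, against 96.1, 136 and 188 CPM in Max wild-type tumors (-0.48 ± 0.16, adjusted p = 0.0507).

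Fen1, which trims the flaps of Okazaki fragments, measured 35.6, 61.9 and 129 CPM in Max null tumors, against 49.2, 72.9 and 91.7 CPM in Max wild-type tumors (log2 difference -0.16 ± 0.21, edgeR adjusted p = 0.632). Lig1, the ligase that seals the fragments, measured 117, 175 and 276 CPM in Max null tumors, against 117, 194 and 307 CPM in Max wild-type tumors (-0.19 ± 0.20, adjusted p = 0.537). The groups overlapped widely in both genes, although 8 of 9 Max null tumors lay below the wild-type median in each. Without null tumor 5, which held the highest Fen1, its difference was -0.35.

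For nucleotide supply, Rrm1 and Rrm2 encode the subunits of ribonucleotide reductase and Tk1 salvages thymidine. Rrm1 measured 166, 224 and 324 CPM in Max null tumors, against 201, 254 and 309.8 CPM in Max wild-type tumors (log2 difference -0.18 ± 0.15, edgeR adjusted p = 0.425). Rrm2 measured 41.0, 75.9 and 331 CPM in Max null tumors, against 61.8, 113 and 182 CPM in Max wild-type tumors (-0.26 ± 0.40, adjusted p = 0.686). Its highest Max null tumor, tumor 5, held 8.09 times the CPM of the lowest, the widest range of the 43 genes in that group, against 2.94 times in Max wild-type tumors. Tk1 was at -0.52 ± 0.33 (adjusted p = 0.289), and 5.76% of its exon bases overlap Afmid on the opposite strand. Without null tumor 5, Rrm2 was at -0.76 and Tk1 at -0.83, and of these Tk1 alone was called.

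Some tumors were the highest or lowest of their group in many of the 43 genes, and the share over all genes was not taken. Null tumor 5 was the highest of the 9 Max null tumors in 29 of the 43 genes, and null tumor 2 the lowest in 23. Among Max wild-type tumors, tumor 7 was the highest in 15 genes and tumor 3 the lowest in 28. The mean of log2(CPM + 0.5) over the 43 genes was 6.45, 5.82, 6.09, 6.09, 6.86, 6.28, 6.26, 6.08 and 6.53 in null tumors 1 to 9, against 6.67, 6.66, 6.19, 6.49, 6.51, 6.64 and 6.87 in wild-type tumors 1 to 7. Null tumors 2, 3, 4 and 8 lay below every wild-type tumor and the other 5 lay within the wild-type range. The groups averaged 6.27 ± 0.306 in Max null and 6.58 ± 0.211 in Max wild-type tumors (SD, n = 9 and 7). By role, the difference of these means was -0.53 for origin recognition, -0.55 for the clamp and loader, -0.45 for single-strand binding, -0.44 for nucleotide supply, -0.32 for helicase activation, -0.30 for helicase loading, -0.18 for Okazaki processing, -0.090 for the polymerases and primase and -0.086 for the helicase core.

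**Figure D3:**
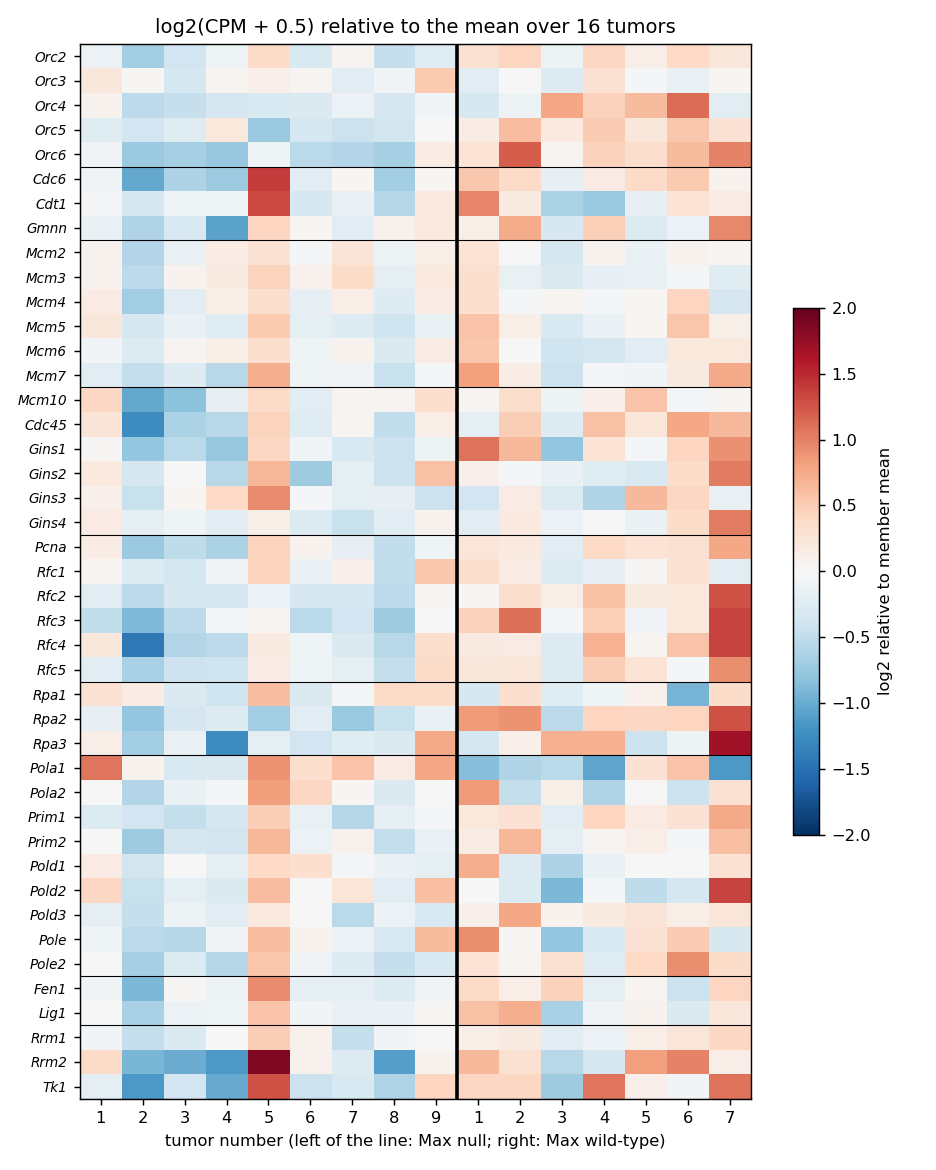
Log2(CPM + 0.5) of the 43 genes (rows, by role) in each tumor (columns, Max null left of Max wild-type), relative to each gene's mean over the 16 tumors. Null tumor 5 has 37 genes above their mean and null tumor 2 has 3, while wild-type tumor 7 has 36 and wild-type tumor 3 has 10.

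Proliferation markers are given beside these differences. Mki67, a marker of cycling cells, measured 301, 644 and 1802 CPM in Max null tumors, against 218, 772 and 1866 CPM in Max wild-type tumors (log2 difference -0.41 ± 0.41, edgeR adjusted p = 0.514). It was highest among Max null tumors in tumor 5 and lowest among Max wild-type tumors in tumor 3. Those tumors also had the highest and lowest mean log2 level of the replication genes in their groups (6.86 and 6.19). Wild-type tumor 7 had the highest such mean of all tumors (6.87). Its Mki67, at 572 CPM, lay below the wild-type median, so Mki67 did not follow this mean in every tumor. Top2a, which untangles replicated DNA, was at 0.14 ± 0.33 (adjusted p = 0.799). In wild-type tumor 7 Top2a measured 442 CPM, also below the wild-type median of 609 CPM. Of 13 proliferation markers 0 were higher and 1 was lower, Cdk2 (-0.66 ± 0.16, adjusted p = 0.0162), with a median of -0.37; 1 of 13 is near the 8.64% of all genes called lower. Without wild-type tumors 2, 4 and 7 edgeR called 0 of the 13, with a median of -0.14, and with the covariate for multiply aligned reads 0, with a median of -0.056. After the length and GC correction Cdk2 was called lower and Ccne2, a cyclin partner of CDK2, higher, with a median of -0.18. Without null tumor 5, or without wild-type tumor 3, 4 of the 13 were called lower (Ccnb2, Cdk1, Cdk2 and Birc5). Without null tumor 5, 1510 of 14740 genes were called lower and 1268 higher. Without wild-type tumor 3, 1542 of 14964 were called lower and 1221 higher. The summed level of the 13 markers was 1098 to 5269 CPM in Max null and 1206 to 4041 CPM in Max wild-type tumors. The part of proliferation in the 8 calls was not tested.

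Transcript length also moved with the differences. Across the 43 members, which share the same 16 libraries, the log2 difference and a gene's exon bases had a Spearman correlation of 0.48. Across 14659 tested genes the correlation was 0.37, but with the length of the longest transcript, so these values are not like for like. The length and GC correction also used the longest transcript. The 21 members under 2867 exon bases had a median log2 difference of -0.48 and the other 22 of -0.18, with 4 genes called lower in each set. After the correction for length and GC content 7 members were called lower, where 5.73% of genes were called lower and 4.75% higher. They were Orc4, Orc5, Orc6, Rfc2, Rfc3, Rfc5 and Rpa2, and the members' median was -0.23.

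**Figure D4:**
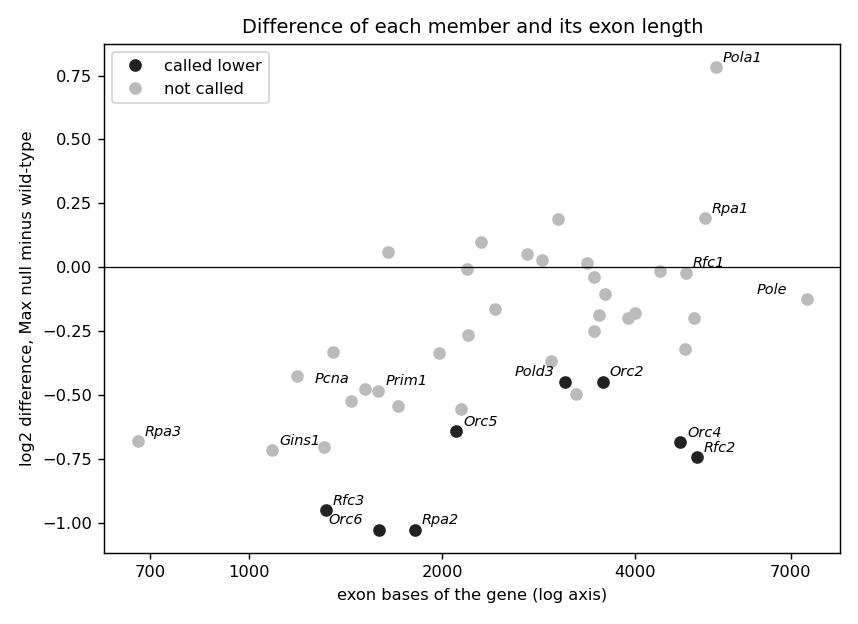
Log2 difference (Max null minus Max wild-type, y axis) of each of the 43 genes against its number of exon bases (log x axis). Rfc3, Orc6 and Rpa2 lie low at under 2867 bases and Pola1 lies highest at 5346, while Orc4 and Rfc2 were called lower at 4706 and 4995 bases.

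Balances between working partners were compared as ratios within a tumor, which are nearly free of library scaling. The 6 pairs were set by role, but with earlier results of these data known, so their p-values may be too small. For each pair the log2 ratio of CPM, with 0.5 added to both genes, was compared between the groups. The test was a two-sided exact permutation test over 11440 splits, adjusted over the 6 pairs. Pola1 over Prim1 was 0.13, 0.53 and 1.42 in Max null tumors, against -1.83, -0.80 and 0.35 in Max wild-type tumors. Of the 9 Max null tumors 7 lay above every wild-type tumor. The difference of means was 1.33 (0.66 ± 0.43 in Max null and -0.67 ± 0.81 in Max wild-type tumors, SD; exact p = 0.000437, adjusted 0.00262), and 0.83 without wild-type tumors 2, 4 and 7 (exact adjusted p = 0.0755). Pola1 has 5346 exon bases and Prim1 1590, and the part of length in this ratio was not tested.

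Pcna over Rfc1 was 1.84, 2.31 and 2.67 in Max null tumors, against 2.37, 2.52 and 3.46 in Max wild-type tumors. Of the 9 Max null tumors 5 lay below every wild-type tumor. The difference of means was -0.46 (exact permutation p = 0.0149, adjusted 0.0448), and -0.25 without wild-type tumors 2, 4 and 7 (exact adjusted p = 0.411). It lost its call without any 1 of null tumors 2, 3, 4, 7 and 9 and wild-type tumors 4, 5 and 7 (-0.34 without wild-type tumor 7, exact adjusted p = 0.117). Cdt1 over Gmnn, a licensing factor over its inhibitor, was 0.62 ± 0.53 in Max null and 0.23 ± 0.72 in Max wild-type tumors (SD; exact p = 0.228, adjusted 0.456). Rrm2 over Rrm1, Pole over Pold1 and Fen1 over Lig1 did not pass, with differences of -0.32, -0.082 and -0.052 (exact adjusted p = 0.546, 0.816 and 0.824).

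**Figure D5:**
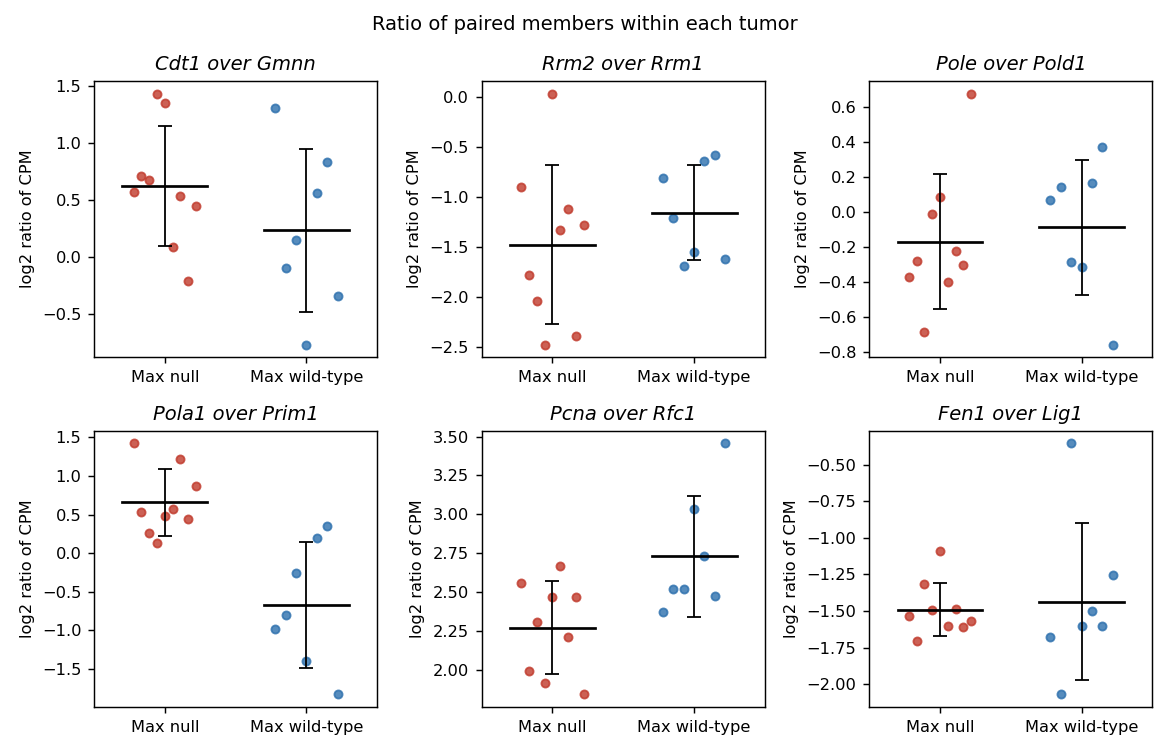
Log2 ratio of CPM (y axis) for 6 pairs of replication genes, 1 point per tumor, Max null (n = 9) left of Max wild-type (n = 7), with mean and SD. Pola1 over Prim1 is above 0 in all 9 Max null tumors and below 0 in 5 of 7 Max wild-type tumors.

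A list of 51 symbols of other replication genes was taken to the same fit. Of these, 50 were in the counts and all 50 passed the filter. Of the 50 tested, 5 fell, 1 rose and 44 did not pass, where 8.64% of all genes tested were called lower and 7.4% higher. So 5 of 50 is near the share of all genes called lower, and 1 of 50 is under the share called higher. The list's median log2 difference was -0.30. Tipin, which protects stalled forks, measured 83.6 ± 5.64 CPM in Max null and 117 ± 27.6 CPM in Max wild-type tumors (SD, n = 9 and 7; log2 difference -0.49 ± 0.13, edgeR adjusted p = 0.0238). Among histone chaperones, Nasp measured 185 ± 82.4 CPM in Max null and 354 ± 129.9 CPM in Max wild-type tumors (-0.94 ± 0.28, adjusted p = 0.0304) and Asf1a 33.3 ± 8.31 CPM in Max null and 48.9 ± 9.76 CPM in Max wild-type tumors (-0.55 ± 0.17, adjusted p = 0.0372). Another was Rnaseh2b, a subunit of the enzyme that removes RNA from DNA (-1.05 ± 0.34, adjusted p = 0.0421), named after its value was seen. Samhd1, which breaks down deoxynucleotides, rose and measured 96.9 ± 14.2 CPM in Max null and 67.2 ± 15.9 CPM in Max wild-type tumors (0.53 ± 0.16, adjusted p = 0.0321). Of the 9 Max null tumors 8 lay above every wild-type tumor for Samhd1. None of the 6 passed without wild-type tumors 2, 4 and 7, where Tipin was at -0.22, Nasp at -0.996, Asf1a at -0.38, Rnaseh2b at -0.44 and Samhd1 at 0.46. After the length and GC correction Tipin was at -0.097 (adjusted p = 0.653), Asf1a at -0.20 (0.489), Nasp at -0.78 (0.0744) and Samhd1 at 0.43 (0.0756), and none of these 4 passed, while Rnaseh2b did at -1.26 (0.0346). Of the 16 fits without 1 tumor, Tipin passed in 15, Nasp in 10, Samhd1 in 10, Asf1a in 7 and Rnaseh2b in 4.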

How the data were processed

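The authors deposited counts of reads per gene symbol, as whole numbers, for each tumor. Tools named in the submitters' processing notes are bcl2fastq 1.8.4, HTSeq 0.6.1, TopHat2 2.0.12 and TopHat, and the build named is mm9; roles and order are not stated. No source used here gives the annotation or the strand setting. The 5 HTSeq totals per file (29.2% to 45.6% of reads) stayed out of library sizes.

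Members, lists, pairs and rules were chosen with earlier results of these data known. The naming rule took called members, otherwise the 2 members of a role with the highest mean, and up to 4 called genes a direction from the other list; further genes were named after their values were seen, and some single results are left out. Log2 differences (Max null over Max wild-type) came from edgeR 4.0.16 in R 4.3.3 with filterByExpr, TMM and quasi-likelihood F tests, Benjamini-Hochberg adjusted over all 14825 genes. The SE is the difference divided by the square root of F. Alternatives were DESeq2 1.42.0, limma-voom 3.58.1, other scalings, filters and covariates, and omitted tumors. The fit was tested on simulated data in which few genes changed. It recovered 18.8% of 48 genes at a log2 difference of -1 and 36% of 50 at 1. At -2 and 2 it recovered 83.0% of 47 and 90% of 50. A gene that did not pass is therefore not shown to be unchanged. Exon lengths and overlaps came from GENCODE M21, on a later build than the counts. The smallest chi-square between libraries was 32.8 per degree of freedom, so no library was a repeat of another.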

Additional observations from a re-analysis of the deposited data

Results flagged for a closer look

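Dixon's ratio on the log2 scale was taken in 112 groups of 9 or 7 tumors, and in 9 of them 1 tumor lay far from the rest; chance gives about 1 in 20. Null tumor 5 was far above the other Max null tumors in Cdc6 (118 CPM, others 21.6 to 45.5), Cdt1 (214 CPM, others 56.9 to 96.9), Mcm7 (377 CPM, others 155 to 224) and Fen1 (129 CPM, others 35.6 to 67.9). Null tumor 2 was far below in Mcm2 (219 CPM, others 298 to 402), and null tumor 4 in Samhd1 (68.0 CPM, others 88.6 to 112). Among Max wild-type tumors, tumor 1 was far above the others in Mcm3 (260.1 CPM, others 171 to 203), tumor 7 in Pold2 (272 CPM, others 57.2 to 106) and tumor 2 in Pold3 (149 CPM, others 91.6 to 104).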

How the results depend on the processing

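The calls of Orc5, Orc6, Rfc2, Rfc3 and Rpa2 held in all 16 fits that left out 1 tumor. Those fits called 5 to 15 members lower and 0 to 1 higher, 2 to 11 other replication genes lower and 0 to 2 higher, and 1471 to 3033 genes over the whole table. Members called lower numbered 15 without null tumor 5 (1510 of 14740 genes lower) and 12 without wild-type tumor 3 (1542 of 14964). They numbered 5 without null tumor 2 (826 of 14746) or wild-type tumor 4 (792 of 14929). With DESeq2 13 members were lower, 1 member was higher and 8 others were lower, where 1792 of 14825 genes were lower and 1543 higher. With voom 9 others were lower (1146 of 14825 genes lower). With no filter 5 members and 3 others were lower (1072 of 21009 genes lower). Without wild-type tumors 2, 4 and 7, 256 genes, 1 member lower and 0 others in either direction were called, and Pola1 over Prim1 (0.83) and Pcna over Rfc1 (-0.25) did not pass. With multiply aligned reads as a covariate 10 genes, 0 members lower and 0 others in either direction were called by edgeR. With the length and GC correction 1536 genes and 2 others lower and 0 higher were called. Tumor numbers did not pair the tumors (correlations of same-numbered deviations -0.17 to 0.24); with the number as a replicate block 318 genes, 1 member lower (Orc6) and 0 others in either direction were called. Values that changed sign were Gmnn (0.014), Gins3 (-0.083), Pola2 (-0.14), Cdt1 over Gmnn (-0.090) without those 3 wild-type tumors, Gmnn (0.19), Gins2 (0.21), Gins3 (-0.26), Gins4 (0.12), Rfc4 (0.038), Rpa3 (0.22), Pola2 (-0.080), Pold1 (0.027), Tk1 (0.21) with the covariate, Mcm2 (-0.061), Gins4 (0.0024), Rpa1 (-0.078), Rpa3 (0.15) with the length and GC correction, Cdt1 (0.029), Mcm6 (0.030), Rfc1 (0.018), Pold1 (0.0073) with no filter, Mcm2 (-0.015) with upper-quartile scaling, Mcm6 (0.034), Gins3 (-0.18), Pold1 (0.11) with voom and Cdt1 (0.028), Mcm6 (0.031), Pold1 (0.042) with the replicate block. Ranges on leaving out 1 tumor were Cdt1 (-0.27 to 0.22), Mcm2 (-0.033 to 0.078), Mcm6 (-0.074 to 0.099), Gins2 (-0.31 to 0.0043), Gins3 (-0.11 to 0.20), Rfc1 (-0.10 to 0.043), Pola2 (-0.10 to 0.23), Pold1 (-0.12 to 0.12), Pold2 (-0.054 to 0.44), Pole (-0.23 to 0.068), Pcna over Rfc1 (-0.52 to -0.34), Fen1 over Lig1 (-0.16 to 0.13). The cause of these changes was not tested.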
